A study of Homo sapiens with 6 samples.

Results

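The Fanconi anemia (FA) pathway and homologous recombination (HR) repair DNA that has been crosslinked or broken through both strands. They were followed here as 41 genes, chosen by name from the known members of these pathways, with earlier results of these data known, and all 41 were among the 35474 genes listed and among the 20776 tested. The cells were A549, an established human lung adenocarcinoma line. In all, 3 samples received an siRNA against BAP18 (siBAP18, n = 3) and 3 received a control siRNA with no specific target (siCtrl, n = 3), biological replicates by the labels, and RNA was taken 48 h later. BAP18, listed as C17orf49, is a chromatin protein that works with the remodeling factor BPTF. Which of the study's BAP18 siRNAs was used is not given in the sources used here, so the comparison stands for 1 line, 1 time and an siRNA that is not identified.

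In outline, the Fanconi anemia core complex is a ubiquitin ligase that marks the FANCD2 and FANCI clamp at a stalled crosslink. Nucleases then open the lesion and leave a break, which homologous recombination repairs from the sister chromatid: the ends are resected, BRCA1, PALB2 and BRCA2 prepare the exposed strand for exchange, paralog complexes and cofactors help it invade the template, and helicases and nucleases take the joined molecules apart. Because the template is the sister chromatid, this route is used in S and G2 phase, and many of its genes are known as E2F targets that proliferating cells transcribe around S phase. Loss of BRCA1 or BRCA2 function is known for sensitizing tumor cells to crosslinking drugs and PARP inhibitors.

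The knockdown showed in every library. C17orf49 (chr17:7014495-7017525, + strand) was counted 743, 751 and 705 times in siCtrl and 120, 137 and 108 times in siBAP18, a log2 fold change of −2.65 (SE 0.111, adjusted p = 7.31e-16). Its exonic bases are shared by 55.8% with MIR497HG on the opposite strand (log2 fold change −2.57) and by 44.3% with the readthrough RNASEK-C17orf49 on the same strand (−0.24), so its counts are not those of C17orf49 alone. The libraries held 42094524 to 56548620 counts. Replicates differed more within siBAP18 than within siCtrl (chi-square of their counts over its degrees of freedom, 11 to 25.8 against 4.17 to 4.87), the highest between siBAP18 replicates 2 and 3. A value in CPM is the count over the library total, with totals scaled by the TMM method, and log2 fold changes are siBAP18 over siCtrl. Each adjusted p comes from the quasi-likelihood test of edgeR and is adjusted by Benjamini-Hochberg over the 20776 genes. Calls needed both an adjusted p under 0.05 and a log2 fold change beyond 1 in either direction. Epithelial keratin genes marked the line, with 468428 to 724385 counts of KRT8 and 225203 to 325354 of KRT18, while the type II alveolar genes NKX2-1, SFTPB, SFTPC and SFTPA2 had at most 8 counts in any library. Of the other 3 type II markers LAMP3 had 2 to 24 counts and NAPSA 25 to 67, but ABCA3 had 2197 to 3103. Other cell types left little signal, at summed levels of 10.33 to 15.55 CPM for 7 fibroblast markers and 0.9196 to 1.195 CPM for 6 endothelial markers. Most counts of the fibroblast markers were of COL1A1, with 349 to 611 a library. Of 5 immune markers, which summed to 65.19 to 70.41 CPM in siCtrl and 120.2 to 154.3 CPM in siBAP18, nearly all counts were of CD68, a lysosomal protein, and the part of this rise in the results was not tested.

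Because the genes are usually discussed as E2F targets, their promoters were read first. RefSeq promoter sequences of 300 bases, from 250 before to 50 after the gene's start on GRCh38.p14, matched 36 of the 41 genes. The RefSeq start lay within 1000 bases of the outermost start in the counted table for 30 of them and farther off for 6, RAD51D, MUS81, RAD51B, RAD52, FANCC and RBBP8, with 109087 bases between them for FANCC. The E2F words TTTCCCGC, TTTGGCGC, TTTCGCGC and TTTGCCGC were searched on both strands, and none of them contains the cell cycle word TTTGAA, the CCAAT box or the GC box GGGCGG, which were searched likewise. An E2F word stood in 6 of the 36 promoters (16.7%), against 4.58% of promoters of all genes tested and 3.31% of all 35116 promoters. The cell cycle word was in 4 (11.1%, against 10.8% of tested genes), the CCAAT box in 14 (38.9%, against 34.2%) and the GC box in 27 (75.0%, against 63.3%). The 5 sequences below are shown because they hold an E2F word close to the start. They run from 100 bases before to 50 after the start, on the gene's own strand, and the capitals mark the word as it reads on that strand. They lie at chr1:241848104-241848253 for EXO1, chr3:10026337-10026486 for FANCD2, chr4:153344588-153344737 for MND1, chr7:152676092-152676241 for XRCC2 and chr9:95317660-95317809 for FANCC, with XRCC2 and FANCC on the − strand.
EXO1: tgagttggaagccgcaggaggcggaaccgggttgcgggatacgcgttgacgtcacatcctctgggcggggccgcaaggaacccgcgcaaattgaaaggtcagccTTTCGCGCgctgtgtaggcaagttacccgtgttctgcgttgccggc
FANCD2: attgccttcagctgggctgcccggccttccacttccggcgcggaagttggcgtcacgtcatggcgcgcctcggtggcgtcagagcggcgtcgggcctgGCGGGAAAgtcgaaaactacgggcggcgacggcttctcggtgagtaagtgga
MND1: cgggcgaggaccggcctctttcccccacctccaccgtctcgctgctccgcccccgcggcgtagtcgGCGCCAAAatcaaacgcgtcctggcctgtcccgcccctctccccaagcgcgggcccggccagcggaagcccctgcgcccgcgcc
XRCC2: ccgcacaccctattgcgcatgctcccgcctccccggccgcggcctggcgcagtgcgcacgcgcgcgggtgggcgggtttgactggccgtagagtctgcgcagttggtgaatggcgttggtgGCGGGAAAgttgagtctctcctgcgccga
FANCC: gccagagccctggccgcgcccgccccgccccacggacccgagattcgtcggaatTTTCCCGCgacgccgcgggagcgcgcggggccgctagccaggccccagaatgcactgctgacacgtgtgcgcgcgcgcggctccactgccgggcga

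The word begins 46 bases before the start in FANCC, 34 before it in MND1 and 2 before it in FANCD2, and on the transcribed side, counting from the start, at base 5 in EXO1 and 22 in XRCC2. A second E2F word of FANCC and the single word of FANCA begin 172 bases before the start. Among these 6 genes, EXO1, XRCC2, MND1, FANCD2 and FANCC were lower at an adjusted p under 0.05, and FANCA was not. Their median log2 fold change was −0.95, and it was −0.68 over the 30 genes without an E2F word in the window, of which 21 were lower and 3 higher. These exact letters were therefore absent from most of the windows read for genes that fell, BLM and BRIP1 included, which says nothing of other forms of the site. The 6 genes and the 30 were not tested against each other. Changes of other tested genes with an E2F word were not read, so no effect of the word is shown. The window of BRCA1 lies at the outermost start of the counted gene. Starts farther inside a gene were not read, for BRCA1 or the others.

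Across the 41 genes, 12 were called lower after BAP18 knockdown and 0 were called higher. That is 29.3% of the genes, where 3.74% of all genes tested were called lower and 4.72% called higher. By adjusted p alone 31 were lower (75.6%, against 25.1% of all genes), 3 were higher (against 24.5%) and 7 passed in neither direction. Every siBAP18 library lay below every siCtrl library for 31 genes (against 29.0% of all genes) and above for 5 (against 27.6%), and the groups overlapped for 5. The log2 fold changes ran from −1.73 to 0.37 with a median of −0.72, beside a median of 0.001 over all genes tested. Relative to the siCtrl mean, the median gene stood at −0.66, −0.72 and −0.84 on the log2 scale in siBAP18 replicates 1, 2 and 3, and 33, 32 and 33 genes were below that mean. All 3 siBAP18 libraries thus showed the fall, with replicate 3 lowest in 20 genes, replicate 2 in 12 and replicate 1 in 9. In bulk RNA of this kind, fewer cells in S phase and less of each RNA per cell cannot be told apart.

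**Figure D1:**
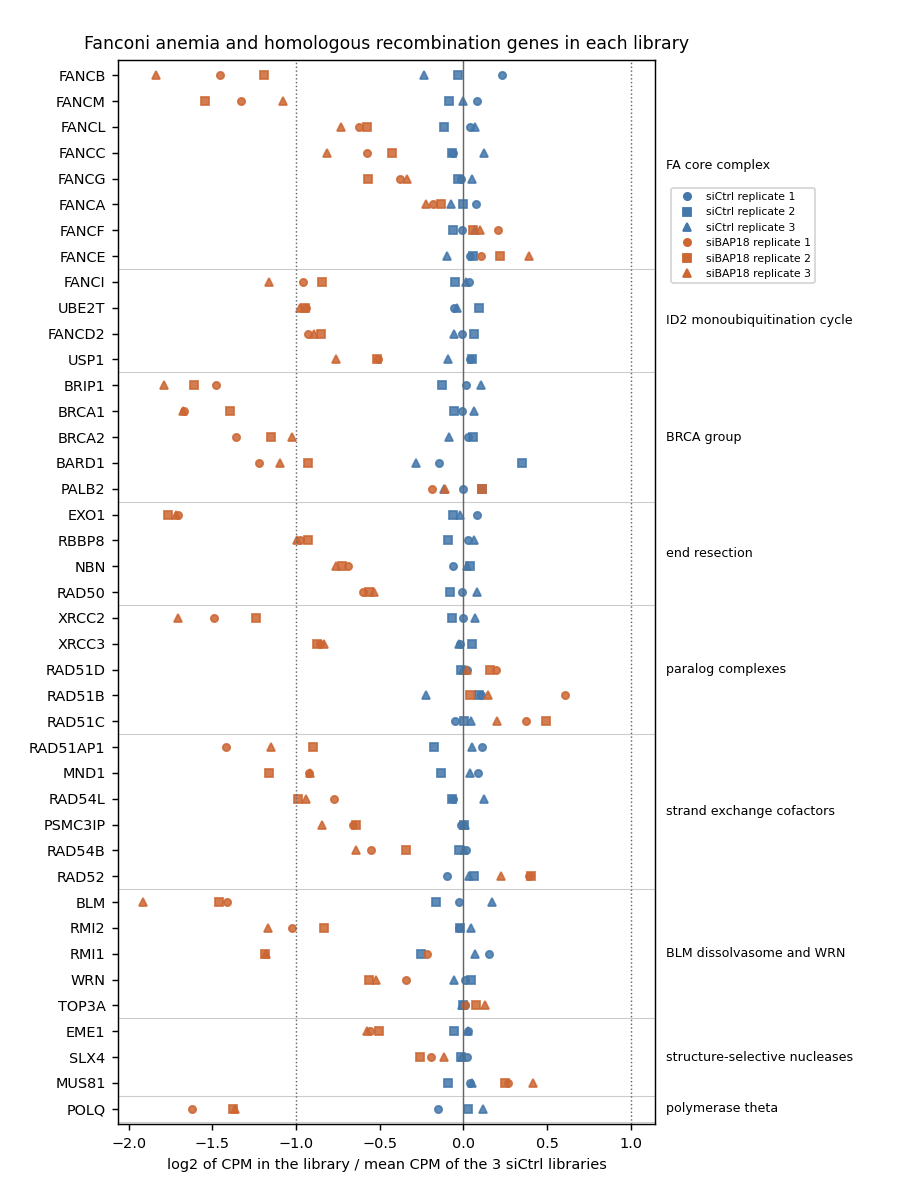
Each row is a gene, grouped by role, and each point a library (circles, squares and triangles for replicates 1, 2 and 3; blue siCtrl, orange siBAP18), placed at the log2 of its CPM over the mean CPM of the 3 siCtrl libraries, with dotted lines at −1 and 1. The orange points lie left of all blue points in 31 of the 41 rows, and EXO1, BRIP1, BRCA1 and BLM lie farthest left while RAD51C, RAD52 and MUS81 lie to the right.

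Of the groups of 3 or more genes, the BRCA group had the lowest median, with 4 of its 5 genes called lower and a median of −1.18. BRCA1 (chr17:43044295-43170245, − strand), a ubiquitin ligase subunit that promotes resection, measured 22.0, 21.2 and 23.0 CPM in siCtrl and 6.95, 8.37 and 6.91 CPM in siBAP18. The means were 22.1 ± 0.923 CPM (SD, n = 3) in siCtrl and 7.41 ± 0.835 CPM (SD, n = 3) in siBAP18, a log2 fold change of −1.57 (SE 0.0902, adjusted p = 3.23e-13). The groups were far apart, and BRCA1 RNA remained at 33.7% of the siCtrl level. BARD1 (chr2:214725646-214809711, − strand), the partner with which BRCA1 forms the ligase, measured 1.86, 2.62 and 1.69 CPM in siCtrl and 0.882, 1.08 and 0.962 CPM in siBAP18, from 39 to 122 counts a library. Its fall was −1.07 (SE 0.216, adjusted p = 1.87e-04), and siCtrl replicate 2 stood above the other siCtrl libraries. Leaving that library out, or siBAP18 replicate 1, took BARD1 out of the called genes, with fold changes from −1.19 to −0.87 over the 6 libraries left out in turn.

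BRIP1 (chr17:61681266-61863521, − strand), the helicase also called FANCJ that binds BRCA1, measured 5.17, 4.69 and 5.52 CPM in siCtrl and 1.84, 1.68 and 1.48 CPM in siBAP18. Its log2 fold change was −1.61 (SE 0.146, adjusted p = 1.32e-09), and 32.7% of the siCtrl level remained. BRCA2 (chr13:32315474-32400266, + strand), which readies resected DNA for strand exchange, measured 3.84, 3.91 and 3.55 CPM in siCtrl and 1.47, 1.70 and 1.85 CPM in siBAP18, a change of −1.18 (SE 0.156, adjusted p = 6.83e-07). In both genes every siBAP18 library was below 2 CPM and every siCtrl library above 3 CPM. PALB2, which bridges BRCA1 and BRCA2, did not follow its partners: it measured 5.66, 6.11 and 5.22 CPM in siCtrl and 4.96, 6.11 and 5.25 CPM in siBAP18, a log2 fold change of −0.05 (SE 0.118, adjusted p = 0.735) with a 95% interval of −0.30 to 0.19. Its groups overlapped, and the interval does not reach the fold changes of BRCA1, BRCA2, BARD1 or BRIP1.

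In the Fanconi core complex 5 of 8 genes were lower at an adjusted p under 0.05 and 2 were called, with a median of −0.51. FANCM (chr14:45135940-45200890, + strand), the translocase that anchors the complex to DNA, measured 2.54, 2.26 and 2.40 CPM in siCtrl and 0.956, 0.822 and 1.13 CPM in siBAP18. It fell by 1.32 on the log2 scale (SE 0.196, adjusted p = 3.65e-06). FANCB (chrX:14843407-14873069, − strand), which holds the catalytic part together, was among the lowest of all, with 44, 32 and 28 counts in siCtrl and 14, 18 and 8 in siBAP18, and its change was −1.44 (SE 0.352, adjusted p = 0.00132). The groups did not overlap in either gene, though FANCB rests on few counts. FANCL (chr2:58159243-58241372, − strand), the catalytic ligase subunit, measured 19.0, 17 and 19.3 CPM in siCtrl and 11.9, 12.3 and 11.1 CPM in siBAP18, a change of −0.64 (SE 0.0840, adjusted p = 5.63e-07), the smallest adjusted p of the complex.

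The remaining core genes split. FANCC, of the substrate-binding part, changed by −0.59 (SE 0.104, adjusted p = 3.63e-05) and FANCG, which pairs with FANCA, by −0.43 (SE 0.0814, adjusted p = 9.81e-05). FANCE and FANCF, which sit with FANCC in the complex, gave 0.24 (SE 0.112, adjusted p = 0.0822) and 0.12 (SE 0.110, adjusted p = 0.383), with intervals of 0.01 to 0.47 and −0.11 to 0.35 that do not meet the −0.80 to −0.38 of FANCC. FANCA, the most often mutated gene in Fanconi anemia, measured 23.9, 22.7 and 21.6 CPM in siCtrl and 20.1, 20.8 and 19.5 CPM in siBAP18. Its siBAP18 libraries were all below its siCtrl libraries, but at −0.18 (SE 0.0748, adjusted p = 0.0513) it did not pass the test.

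All 4 genes of the FANCD2 and FANCI monoubiquitination cycle were lower, at 50.7% to 66.6% of siCtrl, and none was called, though FANCI was called when siBAP18 replicate 2 or siCtrl replicate 2 was left out. FANCI (chr15:89243949-89317261, + strand), the partner of FANCD2 in the clamp, measured 50.4, 47.7 and 49.9 CPM in siCtrl and 25.3, 27.5 and 22.0 CPM in siBAP18, a change of −0.98 (SE 0.0776, adjusted p = 1.19e-10). FANCD2, the subunit whose modified form is the usual marker of pathway activation, changed by −0.89 (SE 0.0931, adjusted p = 1.50e-08), with 12.2 ± 0.516 CPM (SD, n = 3) in siCtrl and 6.57 ± 0.176 CPM (SD, n = 3) in siBAP18. The conjugating enzyme that supplies the ubiquitin, UBE2T, measured 22.5, 25 and 22.7 CPM in siCtrl and 12.2, 12.2 and 11.9 CPM in siBAP18, a change of −0.95 (SE 0.0787, adjusted p = 2.50e-10). USP1, the enzyme that removes the ubiquitin again, gave −0.59 (SE 0.0807, adjusted p = 1.20e-06). The groups were apart in each of the 4, so the RNA of the conjugating enzyme, of both substrates and of the deubiquitinase was lower at once.

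End resection uncovers the single-stranded DNA that invades the template, and all 4 of its genes here were lower. EXO1 (chr1:241847967-241895148, + strand), the exonuclease of long-range resection, had the lowest fold change of the 41 genes. It measured 15.6, 14.1 and 14.5 CPM in siCtrl and 4.52, 4.35 and 4.49 CPM in siBAP18, a change of −1.73 (SE 0.0963, adjusted p = 1.79e-13) that left 30.1% of the siCtrl level. The 3 siBAP18 values were nearly equal, and all were far below the siCtrl values. RBBP8, known as CtIP and the activator of the first cut, came close to the threshold at −0.97 (SE 0.0765, adjusted p = 1.17e-10). RAD50 and NBN belong to the complex that senses the break and begins the cut. RAD50 measured 147, 140 and 157 CPM in siCtrl and 97.6, 99.9 and 102 CPM in siBAP18, a change of −0.57 (SE 0.0666, adjusted p = 1.02e-07), and NBN changed by −0.72 (SE 0.0740, adjusted p = 1.07e-08).

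The 5 paralogs RAD51B, RAD51C, RAD51D, XRCC2 and XRCC3, which assist strand invasion in complexes of their own, moved in different directions, with a median of 0.13. XRCC2 (chr7:152644779-152676165, − strand), whose promoter is printed above, measured 9.40, 8.97 and 9.84 CPM in siCtrl and 3.34, 3.99 and 2.89 CPM in siBAP18. It changed by −1.45 (SE 0.119, adjusted p = 2.26e-10), to 36.6% of siCtrl. XRCC3 was lower at −0.86 (SE 0.0769, adjusted p = 1.09e-09), but 76.7% of its exonic bases are also exons of KLC1 on the opposite strand, and the use of strand in counting is not given in the sources used here, so its reads cannot be told apart from those of KLC1 (log2 fold change −0.26).

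RAD51C (chr17:58692573-58735611, + strand), the paralog that is in both of the stable complexes, was higher. Its values were 11.6, 12.0 and 12.4 CPM in siCtrl and 15.6, 17 and 13.8 CPM in siBAP18, a change of 0.37 (SE 0.0881, adjusted p = 0.00116) with every siBAP18 library above every siCtrl library. RAD51B and RAD51D, which share a complex with RAD51C and XRCC2, passed in neither direction. RAD51D gave 0.13 (SE 0.0821, adjusted p = 0.204), with an interval of −0.04 to 0.30. RAD51B, the lowest gene of the 41 per length, had 42 to 87 counts a library and gave 0.29 (SE 0.232, adjusted p = 0.322), an interval of −0.19 to 0.77 that also covers a change of the size seen in RAD51C. In this complex, then, XRCC2 fell, RAD51C rose, and neither direction was shown for the other genes.

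Of 6 cofactors of strand exchange 5 were lower and RAD52 was higher. RAD51AP1 (chr12:4538798-4560048, + strand), which stimulates the joining of strands, measured 7.69, 6.30 and 7.38 CPM in siCtrl and 2.66, 3.82 and 3.21 CPM in siBAP18, a change of −1.14 (SE 0.133, adjusted p = 9.93e-08). MND1 (chr4:153344649-153415118, + strand), best known from meiosis, was the called gene nearest the threshold. It measured 12.4, 10.7 and 12.0 CPM in siCtrl and 6.17, 5.24 and 6.22 CPM in siBAP18, a change of −1.0 (SE 0.103, adjusted p = 1.16e-08), which unrounded is just past the threshold. The fall passed the test under every alternative, while the call itself was lost under 11 of the 15 alternatives. PSMC3IP, the partner with which MND1 forms a dimer, measured 60.2, 61.0 and 61.2 CPM in siCtrl and 38.4, 39.0 and 33.8 CPM in siBAP18, a change of −0.71 (SE 0.0707, adjusted p = 6.18e-09), and 29.9% of its exonic bases are shared with MLX on the opposite strand (log2 fold change 0.09).

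The motor proteins RAD54L and RAD54B, which remodel chromatin during strand exchange, changed by −0.89 (SE 0.180, adjusted p = 1.80e-04) and −0.50 (SE 0.107, adjusted p = 3.51e-04). RAD54B shares 51.3% of its exonic bases with FSBP on the same strand, which counted −0.39, so the 2 are not separate measurements. RAD52 (chr12:912077-990053, − strand), which anneals single strands in a route that partly backs up BRCA2, measured 6.79, 7.59 and 7.42 CPM in siCtrl and 9.52, 9.62 and 8.49 CPM in siBAP18. It rose by 0.35 (SE 0.0993, adjusted p = 0.00519), and its groups did not overlap.

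BLM (chr15:90717327-90816165, + strand), the helicase mutated in Bloom syndrome, measured 7.67, 6.99 and 8.81 CPM in siCtrl and 2.94, 2.84 and 2.07 CPM in siBAP18. It changed by −1.56 (SE 0.136, adjusted p = 6.13e-10), and siBAP18 replicate 3 was the lowest library. BLM works with TOP3A, RMI1 and RMI2 to dissolve joined molecules, and these partners gave other values. TOP3A, the topoisomerase, measured 16.1, 16.0 and 16.0 CPM in siCtrl and 16.1, 16.9 and 17.5 CPM in siBAP18, a change of 0.07 (SE 0.0776, adjusted p = 0.489) with an interval of −0.09 to 0.23. RMI2 lay just outside the threshold at −0.99 (SE 0.102, adjusted p = 1.20e-08), with 11.3 ± 0.317 CPM (SD, n = 3) in siCtrl and 5.65 ± 0.664 CPM (SD, n = 3) in siBAP18. RMI1 passed the test at −0.77 (SE 0.216, adjusted p = 0.00422) although siBAP18 replicate 1, at 2.21 CPM, was within the siCtrl range of 2.15 to 2.86 CPM and the other siBAP18 libraries were both at 1.13 CPM. Without that replicate its fold change was −1.18. WRN, the related helicase lost in Werner syndrome, changed by −0.47 (SE 0.0831, adjusted p = 3.73e-05).

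The structure-selective nucleases cut joined molecules that are not dissolved. MUS81 (chr11:65857126-65867653, + strand), their catalytic subunit, was higher, at 17.3, 15.8 and 17.5 CPM in siCtrl and 20.3, 20.0 and 22.5 CPM in siBAP18. The change was 0.31 (SE 0.0794, adjusted p = 0.00207), without overlap, and 13.9% of its exonic bases are shared with the highly expressed CFL1 on the opposite strand (log2 fold change 0.17). EME1, the subunit that MUS81 needs for activity, went the other way at −0.55 (SE 0.0767, adjusted p = 1.71e-06), with 20.8 ± 0.680 CPM (SD, n = 3) in siCtrl and 14.3 ± 0.349 CPM (SD, n = 3) in siBAP18. SLX4, the scaffold that gathers these nucleases, gave −0.19 (SE 0.0769, adjusted p = 0.0418), and its call by adjusted p was lost under 12 of the 15 alternatives. POLQ (chr3:121431427-121546641, − strand), the polymerase of the backup pathway of end joining on which recombination-deficient cells depend, measured 7.52, 8.54 and 9.07 CPM in siCtrl and 2.72, 3.22 and 3.26 CPM in siBAP18. It changed by −1.45 (SE 0.121, adjusted p = 3.20e-10), to 36.6% of siCtrl, and its groups were well apart.

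On either side of the fold threshold the values were close. MND1 at −1.0 and BARD1 at −1.07 were the nearest called genes, and RMI2 at −0.99, FANCI at −0.98, RBBP8 at −0.97 and UBE2T at −0.95 were the nearest that were not called. When log2(RPKM + 1) or log2(RPKM + 0.1) was tested with limma, 35 of the genes reached a mean of 0.5 RPKM and were tested. Of the 12 called genes 5 were below it (BARD1, BRCA2, BRIP1, FANCB and FANCM), and of the other 7, with log2(RPKM + 0.1) all but MND1 were called, and with log2(RPKM + 1) EXO1 alone. By adjusted p alone both limma tests had 25 of the 35 lower and 3 higher. Exonic bases shared with another gene on the opposite strand also made up 25.1% of RAD54L (LRRC41), 23.6% of FANCA (ZNF276), 18.7% of FANCL (VRK2) and 16.4% of EME1 (LRRC59).

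Levels per length differed widely between the genes and had little correlation with the change. In siCtrl the highest were PSMC3IP at 23.6 ± 0.384 RPKM, UBE2T at 21.9 ± 1.51 RPKM and RAD50 at 15.1 ± 0.733 RPKM (SD, n = 3 each), where RPKM is the CPM of unscaled totals per kilobase of gene. The lowest were FANCM at 0.282 ± 0.0140 RPKM, FANCB at 0.219 ± 0.0351 RPKM and RAD51B at 0.140 ± 0.0179 RPKM (SD, n = 3 each). FANCI and USP1, both at 6.34 RPKM, and EME1 at 6.31 RPKM were neighbours within their spread. Across the 41 genes, which share the 6 libraries, the log2 RPKM in siCtrl and the log2 fold change had a Pearson r of 0.06 and a Spearman rho of 0.11. For gene length and fold change these were 0.02 and −0.01. These low correlations hide an uneven spread. All genes from PSMC3IP down to WRN, at rank 14 with 3.23 RPKM, were lower, but of these only EXO1 and MND1 were called. The other called genes, and the rises of MUS81, RAD51C and RAD52, were at lower levels than WRN. As a description, falls were seen in abundant as in rare transcripts, and rises only below WRN. UBE2T, near the top, went from 21.9 to 11.4 RPKM, and BRCA2, near the bottom, from 0.306 to 0.136 RPKM.

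**Figure D2:**
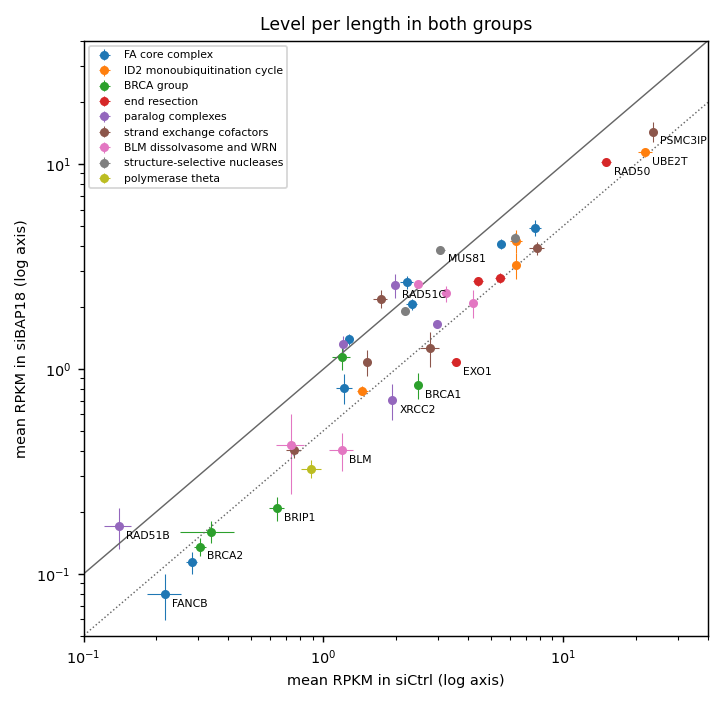
Mean RPKM of each of the 41 genes in siCtrl (x, log axis) and siBAP18 (y, log axis), with the SD over 3 libraries as error bars and colors for roles; the solid line marks equal levels and the dotted line a log2 fold change of −1. Most points lie between the lines or under the dotted one from FANCB at 0.219 to PSMC3IP at 23.6 RPKM in siCtrl, and RAD51C and MUS81 lie above the solid line.

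Since several proteins work only as pairs, the counts of partners were also divided by each other within each library, which removes the scaling between libraries. The 12 pairs were chosen after the values had been seen. With 3 libraries against 3, the smallest p of a two-sided exact permutation test is 0.10 (0.120 adjusted over the 12 pairs), so no pair could pass 0.05, and the ratios are not corrected for length. The ratio of XRCC2 to RAD51C was 0.808, 0.745 and 0.793 in siCtrl and 0.215, 0.235 and 0.209 in siBAP18. The ratio of BLM to TOP3A was 0.476, 0.436 and 0.552 in siCtrl and 0.182, 0.169 and 0.118 in siBAP18. Both pairs thus had siBAP18 ratios far below the siCtrl ratios, without overlap (exact permutation p = 0.10 each).

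BRCA2 to PALB2 went from a mean of 0.666 ± 0.0221 to 0.309 ± 0.0389 and EME1 to MUS81 from 1.24 ± 0.0288 to 0.684 ± 0.0568 (SD, n = 3 each; exact permutation p = 0.10 each). In these pairs too the libraries of the groups did not overlap. FANCD2 to FANCI did not separate, at 0.241, 0.267 and 0.235 in siCtrl and 0.253, 0.245 and 0.298 in siBAP18 (exact permutation p = 0.50), and MND1 to PSMC3IP overlapped too, at 0.193 ± 0.0164 and 0.160 ± 0.0247 (SD, n = 3 each; exact permutation p = 0.20). NBN to RAD50 separated, at 0.177, 0.199 and 0.176 in siCtrl and 0.173, 0.165 and 0.157 in siBAP18, with a small log2 difference of −0.16 (exact permutation p = 0.10).

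**Figure D3:**
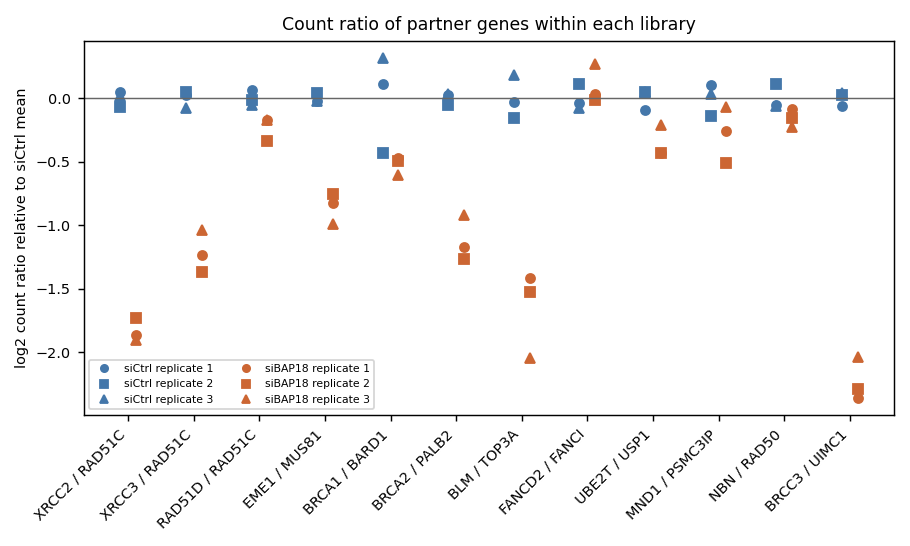
For 12 pairs of partner genes, each point is the log2 count ratio within a library minus the mean of the 3 siCtrl libraries (blue siCtrl, orange siBAP18; circles, squares and triangles for replicates 1, 2 and 3). The orange points lie near −1.83 for XRCC2 / RAD51C and −1.66 for BLM / TOP3A, and overlap the blue points for FANCD2 / FANCI and MND1 / PSMC3IP.

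The rest of the pathway was read from a further list of 48 Fanconi anemia and recombination genes, which shares no gene with the 41. Of these, 8 were called lower (16.7%, against 3.74% of all genes) and 0 higher (against 4.72%). By adjusted p 23 were lower (47.9%, against 25.1%) and 9 higher (18.8%, against 24.5%), and the median was −0.18. Called with the smallest adjusted p were BRCC3, a deubiquitinase of the BRCA1-A complex, at −1.60 (SE 0.0850, adjusted p = 8.31e-14), and MCM8, a helicase subunit of recombination, at −1.25 (SE 0.0741, adjusted p = 5.54e-13). They were followed by the helicase RECQL at −1.20, the resolvase GEN1 at −1.51, the resection nuclease DNA2 at −1.60 and the ATPase FIGNL1 at −1.25. Among subunits of the BRCA1-A complex, singled out after their values were seen, BRCC3 fell while UIMC1, which brings the complex to ubiquitin, rose by 0.64 (SE 0.0702, adjusted p = 3.85e-08) and BABAM1, a scaffold subunit, by 0.34 (SE 0.0797, adjusted p = 9.54e-04).

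Other repair routes were read likewise. Of 17 end joining genes 0 were called, where 3.74% of all genes were called lower and 4.72% higher. By adjusted p 7 were lower (41.2%, against 25.1% of all genes) and 2 higher (11.8%, against 24.5%), and the median was −0.10. Of 7 mismatch repair genes 5 were lower by adjusted p (71.4%) and 1 was called lower (14.3%), with a median of −0.53. No test between these lists was made.

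Most markers of proliferation moved in the same direction as the repair genes. Of 38 S phase markers, none of them among the 41 genes, 37 were lower by adjusted p (97.4%, against 25.1% of all genes). Among them 18 were called lower (47.4%, against 3.74%). The median was −0.96, and every siBAP18 library lay below every siCtrl library for all 38 (against 29.0% of all genes). The called ones with the smallest adjusted p were the replisome factor GINS1 at −1.84, the checkpoint adaptor CLSPN at −2.03, the methylation cofactor UHRF1 at −1.64, the helicase HELLS at −1.45, the licensing factor CDC6 at −1.31 and ATAD2 at −1.24. Of 32 G2/M markers 24 were lower by adjusted p (75.0%, against 25.1% of all genes) and 1 was higher (against 24.5%). Called lower were 10 (31.2%, against 3.74%), and the median was −0.75. The kinesin KIF11 at −1.46 and the topoisomerase TOP2A at −1.31 were among those called. Another 7 passed in neither direction, PLK1 at −0.05 and CCNB2 at −0.10 included, and the higher one was CDC25C at 0.26.

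Summed over the 41 genes, the level was 726.8, 724.4 and 739.8 CPM of the unscaled totals in siCtrl and 491.4, 512.1 and 457.5 CPM in siBAP18. The S phase markers summed to 1836 to 1884 CPM in siCtrl and 1044 to 1128 CPM in siBAP18, and the G2/M markers to 2005 to 2042 and 1070 to 1226 CPM. Counts of the repair genes per S phase marker count were 0.396, 0.384 and 0.396 in siCtrl and 0.452, 0.454 and 0.438 in siBAP18. As a sum, the repair genes were lower after knockdown but not lower relative to the summed S phase markers. Abundant genes weigh most in such a sum, and RAD50 alone gave 7820 of the 38998 counts in siCtrl replicate 1. Single genes differed, with RAD50 at −0.57 and EXO1 at −1.73 beside the S phase median of −0.96. Mitochondrial genes moved in the same direction, with 68649 to 74280 CPM in siCtrl and 52748 to 61369 CPM in siBAP18. The part of the S phase and G2/M markers or of the mitochondrial share in the fall of the repair genes was not tested.

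**Figure D4:**
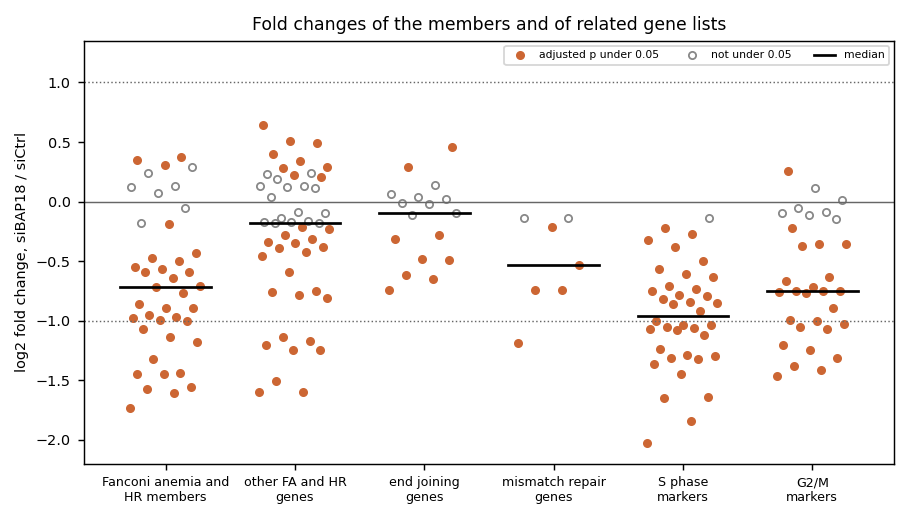
Log2 fold change of siBAP18 over siCtrl for each gene of 6 lists (filled orange, adjusted p under 0.05; open grey, not under 0.05), with the median as a bar and dotted lines at −1 and 1. The medians are −0.72 for the 41 Fanconi anemia and HR genes, −0.18 for other FA and HR genes, −0.10 for end joining, −0.53 for mismatch repair, −0.96 for S phase and −0.75 for G2/M markers.

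Off-target silencing can follow from the seed of an siRNA, so a word that matches the seed (guide bases 2 to 8) of siBAP18#3 was looked for in the 3′ UTRs of GENCODE 29. The word ACTCAAC was in the 3′ UTR of 0 of the 41 genes, and of 7.79% of the 13746 tested genes with an annotated 3′ UTR. In the 1071 tested genes with the word the median log2 fold change was −0.25 and 9.71% were called lower, against 0.01 and 3.50% in the 12675 without it. The 2 sets of genes were not matched for the length of the 3′ UTR. Whether siBAP18#3 was the siRNA used is not given, and the words of the other BAP18 siRNAs were not searched here. The fall of the 41 genes was measured in transcripts without this word in the annotated 3′ UTR. The part of off-target silencing in that fall, direct or through other genes, was not tested.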

How the data were processed

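Poly(A) RNA of 3 siCtrl and 3 siBAP18 samples of A549 was sequenced as paired ends from strand-specific libraries, per the labels. The authors deposited counts per gene, whole numbers without normalization, and RPKM values, which equal counts over gene length and library total for 100.0% of values within 1e-06 of 1 plus the value. The submitters' processing notes name the builds hg38 and GRCm38; gene positions here are those of the human table. The aligner, the counting program and its use of strand are not given in the sources used here. Of 59860 counts from 1 to 20, 75.9% were even, and of counts from 101 to 120, 61.3% were. Whether both ends of a pair were counted is not given either, so a low count may stand for fewer fragments than its number. Libraries held 46035635 to 53657450 counts in siCtrl and 42094524 to 56548620 in siBAP18.

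Counts were tested in R 4.3.3 with edgeR 4.0.16 (filterByExpr, TMM, quasi-likelihood test over all 6 libraries, Benjamini-Hochberg adjustment), a step tested on simulated data. SEs were taken as the fold change (log2) over the root of F, and intervals are at 95%. DESeq2 1.42.0 and limma 3.58.1 served as alternatives, as did other scalings and filters, a replicate block and each library left out. Residuals of same-numbered libraries had a Pearson r of 0.0668, 0.227 and 0.107, and those of differently numbered libraries −0.17 to 0.0721. The numbers were not treated as pairs in the main test. Ratios were tested with scipy 1.17.1. Named in full were called genes, the gene with the smallest adjusted p of each role, the 3 rises and the genes nearest the threshold. Of other lists, up to 6 called genes by adjusted p were named, beside a few that were not called. The members and lists were chosen with earlier results of these data known. RAD51AP2 and SHLD3 were not analysed here. A few other genes of the lists are not reported here.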

Additional observations from a re-analysis of the deposited data

How the results depend on the processing

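The 41 genes had 12 calls lower and a median log2 fold change of −0.722, beside 1758 calls (777 lower, 981 higher) over all genes. With limma on log2(RPKM + 0.1) there were 6 calls among them and a median of −0.63, beside 909 calls (434 lower, 475 higher), and with log2(RPKM + 1) 1 call and −0.458, beside 348 calls (133 lower, 215 higher); both tests cover 35 of the 41 genes and 16484 genes in all, and leave out 5 of the 12 called ones. Requiring at least 10 counts in every library dropped FANCB, left 10 calls and gave 605 genes called higher in all. Under the other scalings, DESeq2 and no filter the calls numbered 11 to 13. With each library left out in turn they numbered 11 to 14, and the median lay between −0.74 and −0.651. BARD1 was not called without siBAP18 replicate 1 or without siCtrl replicate 2, and RMI1 was called without siBAP18 replicate 1. FANCI was called without siBAP18 replicate 2 or siCtrl replicate 2, RBBP8 without siCtrl replicate 2, and RMI2 without siBAP18 replicate 2, siCtrl replicate 1 or siCtrl replicate 2 and with no filter. Of 602 fold changes of single genes under these settings 587 kept direction and side of the adjusted p, PALB2 turned to 0.01 without siBAP18 replicate 1 (range −0.15 to 0.01 over the libraries left out), 12 lost it (all of SLX4) and 2 gained it (both of FANCA). SLX4 kept it with the replicate block, with at least 10 counts in every library and without siBAP18 replicate 3. Of the libraries taken as numbered pairs, the replicate block gave 11 members called lower, without MND1, 32 lower and 3 higher by adjusted p, and 1741 calls in all. There FANCA passed at 0.0356. Residuals of siCtrl replicate 1 correlated more with siBAP18 replicate 3 (r = 0.0721) than with its own number. All other differently numbered libraries had a negative r, from −0.17 to −0.0193. Depth limits FANCB, with 8 to 44 counts a library, most; counting error only is covered by such counts.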
